A study of Callithrix jacchus with 39 samples.

Results

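The genes described here are those of the NODAL, BMP and TGF-beta signalling pathways in embryonic stem cells (ESCs) and early embryos of the common marmoset, Callithrix jacchus. They were chosen by gene symbol alone, as the symbols that begin with or equal names of pathway ligands, receptors, SMAD proteins and antagonists. The rule found 48 genes among the 12660 gene IDs that carry a symbol. By role they were 4 NODAL and activin ligands, 12 BMP and GDF ligands, 3 TGF-beta ligands, 7 type I receptors, 5 type II and III receptors, 5 SMADs, 8 BMP and activin antagonists and the NODAL antagonist CER1. The 12 include BMP1, a protease. The 8 include FSTL4 and FSTL5, relatives of follistatin that were grouped there by symbol. Another 3 (BMP2K, TGFB1I1 and TGFBRAP1) matched by the letters of their symbols and are a kinase and 2 binding partners rather than core pathway genes. BMP2, BMP4, the LEFTY genes, TDGF1, SMAD6, SMAD7, SMAD9, ID1 to ID4 and the GREM genes were not analysed here.

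In this superfamily a secreted ligand binds a pair of type II and type I receptors, which phosphorylate SMAD proteins that enter the nucleus with SMAD4. NODAL, activins and TGF-beta signal mainly through SMAD2 and SMAD3, and BMPs mainly through SMAD1 and SMAD5. Secreted antagonists such as CER1, NOG, CHRD and FST hold ligands away from their receptors. NODAL and activin signalling maintains the primed pluripotent state, and together with BMP signalling it drives formation of the primitive streak.

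Poly(A)+ RNA was sequenced in 39 libraries, in 13 groups of 3. Of the ESCs there were 6 groups, namely DSY127 and No.40 in the primed state, primed cells titled DSY-c2 and N40 whose titles carry Tg, DSY-c2 naive cells whose titles carry TgON, and N40 naive cells whose titles carry TgOFF. The labels do not define Tg and give no culture conditions, so TgON and TgOFF cannot be told apart from the line. The embryo was sampled in 7 groups: morula, epiblast after implantation, and between them the inner cell mass (ICM) at 5 blastocyst stages, labelled early, blastocyst, expanded, hatching and hatched. Whether replicates were independent cultures or embryos is not stated, so the p-values reflect spread among libraries that could be purely technical.

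Total counts per library ranged from 38.8 to 78.7, in units of 1000000 counts. The naive factor ESRRB was at 29.5 to 69.1 CPM (counts per 1000000 counts of the library) in the 6 naive libraries and at most 1.26 CPM in the 12 primed ones. The epiblast libraries held DNMT3B, a primed-state methyltransferase, at 4502 to 4554 CPM, but also the fibroblast genes DCN (517 to 579 CPM) and POSTN (228 to 277 CPM). DCN had no count in any of the 15 ICM libraries. The column headers of DSY-c2 primed, DSY-c2 naive replicates 1 and 2 and No.40 replicate 1 end in L6 and L7. Those of the other libraries end in L1 and L2, and what these suffixes stand for is not stated. All levels below are in CPM, scaled once over the 39 libraries. They were compared for 1 gene across libraries and never between genes, since gene lengths were not used here. Replicates are given in the order of their numbers, which are 2, 4 and 5 for DSY-c2 primed cells.

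The 48 genes spanned a wide range. A mean of at least 10 CPM in some group was reached by 33 of them, 20 had a count in every library, and 4 stayed under 1 CPM in every library. GDF3 peaked at 3144 CPM in blastocyst ICM replicate 2. FSTL1 peaked at 2191 CPM in epiblast replicate 2. GDF2, a ligand of the endothelial receptor ACVRL1, was near 0 throughout, with at most 0.0321 CPM. The heat map of group means shows FSTL1 bright in the epiblast and primed columns and GDF3 bright in the ICM and naive columns.

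**Figure D1:**
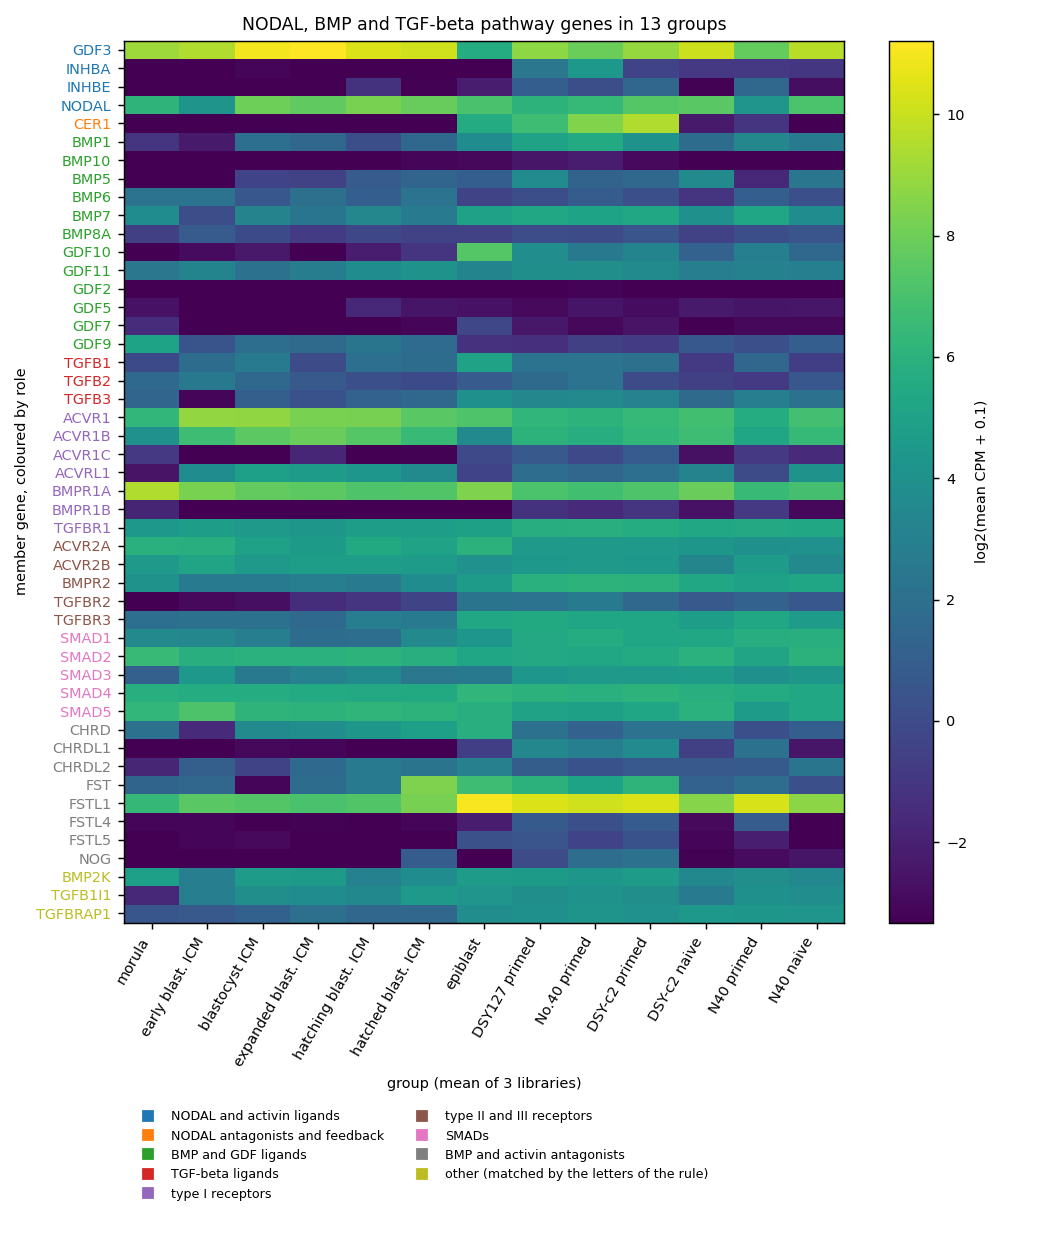
Mean level of the 48 genes (rows, label colour gives the role) in the 13 groups (columns, 3 libraries each), as log2(mean CPM + 0.1). GDF3 is dim in the epiblast column alone among the embryo columns, and CER1 is at the bottom of the scale in the morula and all ICM columns.

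The first question was how naive cells differ from primed cells of the same line. Of the 48 genes, 44 passed the low-count filter of the ESC fit. In DSY-c2, 7 rose and 23 fell in naive cells, against 25.2% of all 17947 tested genes higher and 32.1% lower. In N40, 12 rose and 14 fell, against backgrounds of 26.9% and 33%. The median log2 fold change of the 44 was -0.72 in DSY-c2 and -0.15 in N40, beside -0.07 and -0.05 over all genes tested. Calls are those of edgeR's quasi-likelihood test with an adjusted p (Benjamini-Hochberg, over all tested genes) under 0.05. In both lines 5 members rose (GDF3, BMP5, BMPR1A, SMAD2 and SMAD5), 13 fell, and 0 moved in opposite directions. Over all tested genes, 18.5% rose in both lines, 24.9% fell in both and 1.15% moved in opposite directions, and nothing particular to the members is read from these counts. Leaving out DSY-c2 naive replicate 3, which leaves only headers that end in L6 and L7, gave 25 calls in DSY-c2 in place of 30.

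**Figure D2:**
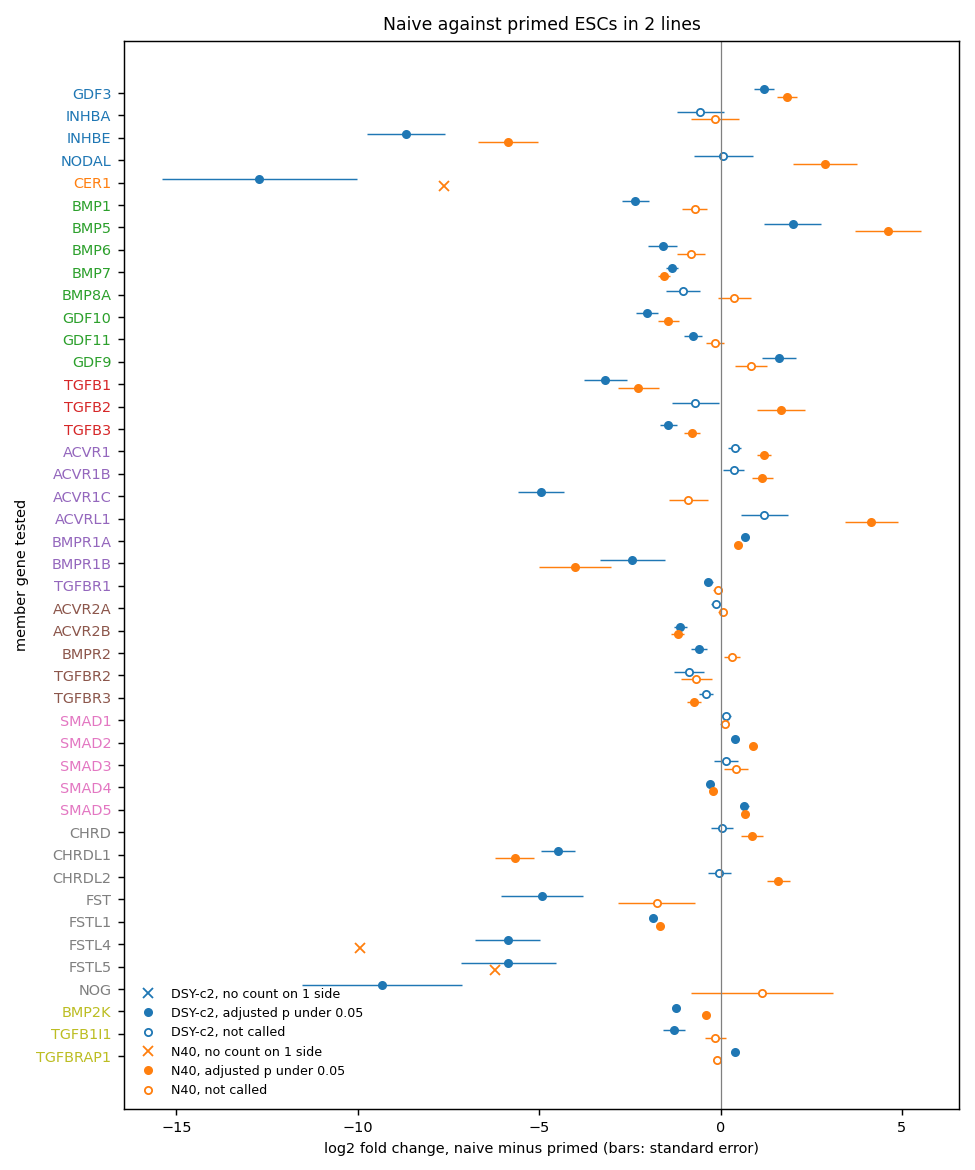
Log2 fold change of naive minus primed cells (x axis, bars are standard errors) for the 44 tested genes in DSY-c2 (blue) and N40 (orange), with filled points for adjusted p under 0.05 and crosses, without bars, for 3 genes with no count in N40 naive cells. GDF3, SMAD2, SMAD5 and BMPR1A lie right of 0 in both lines. The antagonist CHRDL1 and the follistatin-like genes FSTL1, FSTL4 and FSTL5 lie left of 0 in both.

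Among the NODAL and activin ligands, GDF3, a ligand that signals through the NODAL receptor complex and marks pluripotent cells (ENSCJAG00000005406), rose in both lines. The DSY-c2 levels were 437, 581 and 438 CPM in primed and 1045, 984 and 1330 CPM in naive libraries. In N40 it was 185, 226 and 256 CPM in primed and 792, 786 and 809 CPM in naive libraries. The groups did not overlap in either line. The log2 fold changes were 1.21 ± 0.27 (SE, adjusted p = 0.00139, edgeR) and 1.84 ± 0.28 (adjusted p = 3.44e-05), and their difference between lines (-0.63 ± 0.38) was not called.

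NODAL itself (ENSCJAG00000016288), the ligand that patterns the epiblast, was steady in naive cells and uneven in primed ones. Naive libraries read 176, 172 and 183 CPM in DSY-c2 and 150, 135 and 132 CPM in N40. Primed libraries read 53.7, 385 and 64.4 CPM in DSY-c2 and 12.4, 17.9 and 26.2 CPM in N40. In N40 the naive libraries were all above the primed ones, and NODAL rose by 2.88 ± 0.88 on the log2 scale (adjusted p = 0.0113, edgeR), in each fit without 1 library as well. In DSY-c2, primed replicate 4 lay above all 3 naive libraries, and the log2 fold change was 0.07 ± 0.82 (adjusted p = 0.947). Without that library it was 1.58 (adjusted p = 0.109), and with DESeq2 size factors it was -0.06. The difference between lines, -2.81 ± 1.18, was not called (adjusted p = 0.128) and was -1.30 without DSY-c2 primed replicate 4. The INHBE gene, an activin and inhibin beta subunit gene, was low and fell in both lines, from 1.36 to 3.81 CPM in the 6 primed libraries to at most 0.14 CPM in the 6 naive ones. Its N40 value was -5.87 ± 0.83, and -10.60 without naive replicate 3. INHBA, the subunit of activin A, was under 1 CPM in both lines and was not called in either.

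CER1, a secreted antagonist of NODAL and BMP (ENSCJAG00000012238), fell in DSY-c2. It was 122, 1908 and 95.9 CPM in primed and 0.206, 0.0585 and 0.0526 CPM in naive libraries, a log2 fold change of -12.71 ± 2.69 (adjusted p = 0.00151, edgeR). Every primed library was far above every naive one, and the fold change was -10.01 (adjusted p = 0.0032) without primed replicate 4. In N40, primed libraries already stood at 0.418, 0.404 and 0.235 CPM and no naive library had a count. Against a floor of 3 counts over the naive group, N40 primed cells were at least 27.9-fold higher, but the fall was not called (adjusted p = 0.387).

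The primed libraries differed from each other in the genes around NODAL. DSY-c2 primed replicate 4 held the highest NODAL and CER1 of the 12 primed libraries, and also the highest NOG (11.5 CPM, against 0.432 and 0.623 in its group) and FST (162 CPM, against 31.9 and 13.7). No.40 replicate 1 was high in the same genes within its group. It had 212 CPM of NODAL, 991 of CER1, 9.73 of NOG and 86.5 of FST, whereas the highest of its 2 partners were 26.5, 40.0, 0.782 and 9.29 CPM. MIXL1, a primitive streak gene, was 65.5 CPM in DSY-c2 primed replicate 4 and 21.8 CPM in No.40 replicate 1, and 3.13 to 9.77 CPM in the other 10 primed libraries. EOMES, another streak gene, was 101 and 56.0 CPM in these 2 libraries and at most 25.6 CPM in the other 10. TBXT, also a streak gene, was 89.2 CPM in DSY-c2 primed replicate 4. In No.40 replicate 1 it was 39.9 CPM, below each DSY127 library (55.4, 41.5 and 47.6 CPM). The summed level of 5 mesoderm and primitive streak genes (TBXT, EOMES, MIXL1, SNAI2 and MESP1) was 45.9 to 265 CPM in DSY-c2 primed and 6.38 to 11.1 CPM in N40 primed libraries. That sum was 53.3 to 96.4 CPM in DSY127 and 14.2 to 124 CPM in No.40 libraries. The naive libraries had 2.48 to 2.76 CPM of that sum in DSY-c2 and 2.36 to 4.10 CPM in N40. Its part in the falls of CER1, NOG and FST was not tested. In bulk RNA, fewer cells of a type and less RNA per cell cannot be told apart.

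**Figure D3:**
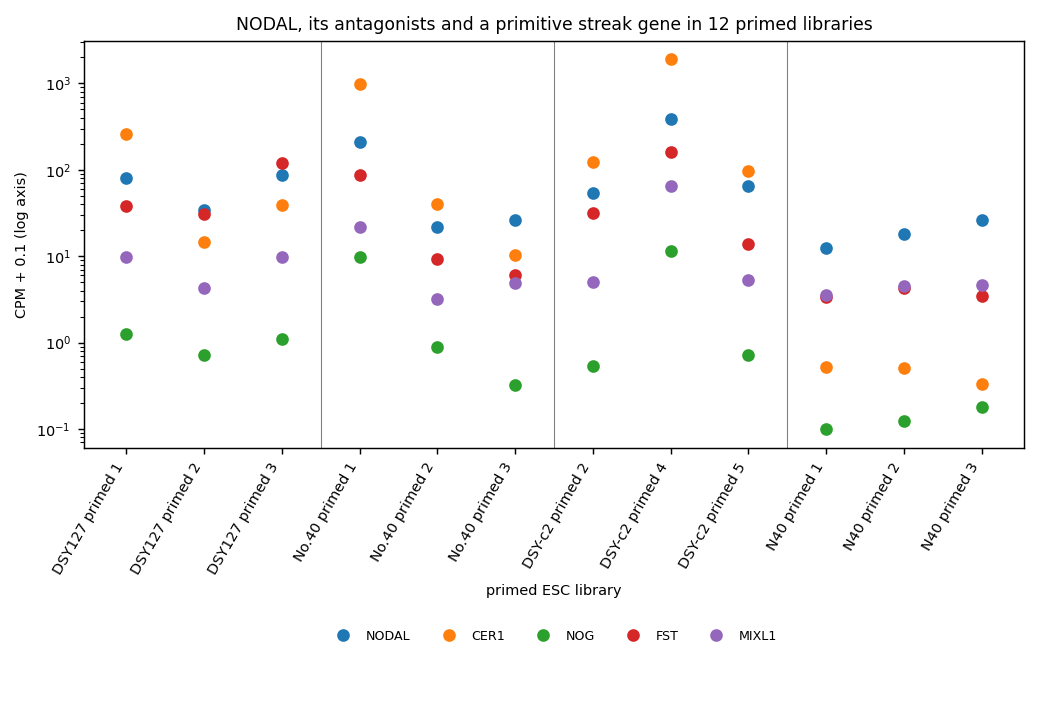
Level (CPM + 0.1, log axis) of NODAL, CER1, NOG, FST and the primitive streak gene MIXL1 in the 12 primed ESC libraries (x axis, 4 groups split by lines). The 5 genes are high together in DSY-c2 primed 4 and No.40 primed 1, and CER1 stays under 1 CPM in the 3 N40 primed libraries.

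Of the 8 BMP and GDF ligands tested, 2 rose and 5 fell in DSY-c2, and 1 rose and 2 fell in N40. This group includes the protease BMP1, which is among the falls in DSY-c2. The shares of all tested genes were 25.2% and 32.1% in DSY-c2, and 26.9% and 33% in N40. BMP7, a broadly acting BMP, fell in both lines. It went from 37.2, 40.8 and 41.0 CPM to 18.5, 11.6 and 17.1 CPM in DSY-c2 (-1.33 ± 0.17). In N40 it went from 38.4, 44.1 and 34.1 CPM to 10.6, 12.6 and 16.3 CPM (-1.56 ± 0.17). No naive library reached a primed one. The adjusted p values were 4.22e-06 and 6.32e-07 (edgeR). GDF10, also called BMP3B, fell as well, by 2.02 ± 0.31 on the log2 scale in DSY-c2 and by 1.44 ± 0.30 in N40, from 4.08 to 11.7 CPM over the 6 primed libraries to 2.03 to 3.14 CPM over the 6 naive ones.

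BMP5 moved the other way. Its levels in DSY-c2 were 1.55, 6.65 and 0.665 CPM in primed and 11.2, 12.2 and 11.7 CPM in naive libraries (1.99 ± 0.78, adjusted p = 0.0395, edgeR). In N40 they were 0.185, 0.202 and 0.235 CPM in primed and 6.05, 4.25 and 5.09 CPM in naive libraries (4.62 ± 0.92, adjusted p = 0.000479). The groups did not overlap in either line. The DSY-c2 call was lost in 5 of the 6 fits without 1 library, with DESeq2 size factors (adjusted p = 0.0543) and without the low-count filter (adjusted p = 0.0728). The log2 fold change was 3.40 without DSY-c2 primed replicate 4.

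BMP1, a protease that cleaves procollagen and chordin rather than a signalling ligand, fell in DSY-c2 from 18.6, 17 and 16.9 CPM to 4.08, 3.52 and 2.74 CPM (-2.34 ± 0.36, adjusted p = 4.7e-05, edgeR). In N40 it was 11.6, 8.45 and 11.3 CPM in primed and 9.83, 4.47 and 4.91 CPM in naive libraries, which overlapped, and it was not called. GDF11, a patterning ligand, fell in DSY-c2 from 14.2, 11.6 and 11.3 CPM to 7.99, 8.15 and 5.87 CPM (-0.75 ± 0.25, adjusted p = 0.0154). That call was lost without naive replicate 3 (adjusted p = 0.0697) or primed replicate 2 (0.0627). GDF9, an oocyte factor, rose in DSY-c2 but stayed low, with a highest value of 2.27 CPM in that line. BMP6, another BMP, fell in DSY-c2 at levels under 2 CPM.

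The TGF-beta ligands TGFB1 and TGFB3 fell in both lines. TGFB3 went from 9.79, 7.25 and 9.24 CPM to 3.93, 2.71 and 3.01 CPM in DSY-c2 (-1.44 ± 0.23). In N40 it went from 8.83, 7.37 and 5.92 CPM to 3.13, 5.08 and 4.62 CPM (-0.79 ± 0.23). Neither line showed overlap between its groups. TGFB1 was at 1.5 to 5.02 CPM in the 6 primed and 0.203 to 0.766 CPM in the 6 naive libraries, with log2 fold changes of -3.18 ± 0.60 and -2.26 ± 0.57. The N40 value was -1.45 without primed replicate 1. TGFB2 rose in N40 by 1.66 ± 0.66 (adjusted p = 0.0397, edgeR), and that call was lost in each of the 6 fits without 1 library.

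Type I receptors carry the kinase that phosphorylates SMADs. BMPR1A, a main BMP type I receptor (ENSCJAG00000011555), rose in both lines, from 135, 168 and 142 CPM to 244, 229 and 231 CPM in DSY-c2 (0.66 ± 0.09, adjusted p = 6.36e-06, edgeR). In N40 it rose from 87.2, 86.1 and 87.4 CPM to 122, 121 and 120 CPM (0.48 ± 0.09, adjusted p = 0.000149). The groups were apart in both lines, with a spread within the N40 groups of 0.688 CPM (primed SD) and 1.25 CPM (naive SD, n = 3 each).

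The activin and NODAL receptor ACVR1B (ALK4, ENSCJAG00000017891) rose in N40 from 47.0, 37.8 and 31.8 CPM to 70.5, 93.5 and 94.3 CPM (1.15 ± 0.29, adjusted p = 0.00293, edgeR). In DSY-c2 it was 68.9, 115 and 56.4 CPM in primed and 92.8, 97.3 and 119 CPM in naive libraries, groups that overlapped (0.36 ± 0.29, not called). ACVR1 (ALK2), a receptor for BMPs and activins, rose in N40 from 53.0, 45.5 and 53.5 CPM to 127, 110 and 109 CPM (1.19 ± 0.19, adjusted p = 4.43e-05). It was 69.7, 113 and 73.2 CPM in DSY-c2 primed and 118, 110 and 106 CPM in DSY-c2 naive libraries (0.39 ± 0.19, not called). The difference between lines was not called for ACVR1B (adjusted p = 0.213) or ACVR1 (0.0503).

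ACVRL1 (ALK1), best known as an endothelial receptor, rose in N40 from 2.08, 0.202 and 0.588 CPM to 18.9, 13.8 and 18.5 CPM (4.15 ± 0.73, adjusted p = 0.000144, edgeR). In DSY-c2 it was 2.61, 7.24 and 1.80 CPM in primed and 7.37, 13.2 and 6.29 CPM in naive libraries, where 1 naive library lay below a primed one. ACVR1C (ALK7), a NODAL and activin receptor, was low and fell in DSY-c2 from 1.51 to 2.30 CPM to 0.0293 to 0.105 CPM (-4.96 ± 0.63), and was not called in N40. TGFBR1 (ALK5), the TGF-beta type I receptor, fell little in DSY-c2, from 49.8, 55.2 and 49.2 CPM to 46.1, 43.6 and 32.7 CPM (-0.33 ± 0.11, adjusted p = 0.0203). That call was lost with TMM scaling within ESC libraries (adjusted p = 0.0941), in a fit of the 2 groups alone (0.0794), and without naive replicate 3 (0.112) or primed replicate 4 (0.079). BMPR1B, another BMP type I receptor, was under 1 CPM in every library and was called lower in both lines, in DSY-c2 with 1 call kept among the 6 fits without 1 library. Its N40 value of -4.01 ± 0.99 became -7.91 without naive replicate 3.

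The type II and III receptors fell or were not called. ACVR2B, an activin and NODAL type II receptor, fell in both lines. Its levels were 20.1, 21.8 and 21.9 CPM in DSY-c2 primed and 9.78, 8.95 and 10.9 CPM in DSY-c2 naive libraries (-1.11 ± 0.18, adjusted p = 7.18e-05, edgeR). They were 27.7, 23.5 and 25.7 CPM in N40 primed and 8.14, 13.3 and 12.6 CPM in N40 naive libraries (-1.17 ± 0.18, adjusted p = 3.32e-05). Its paralogue ACVR2A was 19.2 to 25.9 CPM over the 6 DSY-c2 libraries and 14.9 to 17.3 CPM over the 6 N40 libraries, and was called in neither line. TGFBR3 (betaglycan), a coreceptor, fell in N40 from 39.4, 50.7 and 34.8 CPM to 27.2, 22.7 and 25.3 CPM (-0.73 ± 0.20, adjusted p = 0.00422). BMPR2, the BMP type II receptor, fell in DSY-c2 from 47.1, 88.9 and 55.4 CPM to 45.0, 42.4 and 40.1 CPM (-0.59 ± 0.22, adjusted p = 0.0303), with the naive libraries all below the primed ones. Without DSY-c2 primed replicate 4 its log2 fold change was -0.27 (adjusted p = 0.258), and the call was also lost without any 1 of the naive libraries and with TMM scaling within ESC libraries (0.078).

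Of the 5 SMADs, SMAD2 and SMAD5 rose in both lines and SMAD4 fell in both by a small amount. Over all tested genes, 18.5% rose in both lines and 24.9% fell in both. SMAD2, which carries NODAL, activin and TGF-beta signals, rose from 44.8, 49.5 and 46.6 CPM to 59.6, 58.3 and 68.6 CPM in DSY-c2 (0.40 ± 0.10). In N40 it rose from 35.1, 35.3 and 35.3 CPM to 57.0, 72.8 and 65.9 CPM (0.89 ± 0.10, adjusted p = 9.24e-07, edgeR). SMAD5, a BMP-activated SMAD, rose from 43.9, 33.7 and 38.5 CPM to 61.3, 59.1 and 62.6 CPM in DSY-c2 (0.66 ± 0.12). For both genes, and in both lines, each naive library was above each primed one. In N40, SMAD5 went from 29.8, 26.7 and 23.0 CPM to 39.4, 46.9 and 40.9 CPM (0.68 ± 0.12). SMAD4, the shared partner, fell from 66.8, 65.8 and 67.5 CPM to 54.2, 58.2 and 52.1 CPM in DSY-c2 (-0.28 ± 0.07, adjusted p = 0.00336). In N40 it fell from 45.7, 50.4 and 50.5 CPM to 42.7, 42.4 and 41.1 CPM (-0.22 ± 0.07, adjusted p = 0.0178). With TMM scaling within ESC libraries, which moved the median of all genes by 0.10 in DSY-c2 and 0.14 in N40, these SMAD4 calls were lost (adjusted p = 0.058 and 0.465). The N40 call was also lost with the DESeq2 test (adjusted p = 0.0696), in a fit of the 2 groups alone, and without naive replicate 3 or primed replicate 2 or 3. DESeq2 size factors moved that median by -0.13 in DSY-c2 and by less than 0.1 in N40. SMAD1 and SMAD3 were called in neither line.

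Of the 8 BMP and activin antagonists, 6 fell and 0 rose in DSY-c2, and 4 fell and 2 rose in N40. FSTL4 and FSTL5, grouped here by symbol, are among the falls in both lines. Over all tested genes, 32.1% fell and 25.2% rose in DSY-c2, and 33% fell and 26.9% rose in N40. FSTL1, a secreted follistatin-like glycoprotein (ENSCJAG00000008700), fell from 1392, 1254 and 1407 CPM to 435, 356 and 331 CPM in DSY-c2 (-1.85 ± 0.10, adjusted p = 9.25e-10, edgeR). In N40 it fell from 1312, 1257 and 1300 CPM to 443, 384 and 392 CPM (-1.67 ± 0.10, adjusted p = 1.46e-09). The groups were far apart in both lines, and the difference between lines (-0.19 ± 0.14) was not called.

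FST (follistatin), which binds activin (ENSCJAG00000001590), fell in DSY-c2 from 31.9, 162 and 13.7 CPM to 2.71, 2.75 and 1.37 CPM (-4.93 ± 1.14, adjusted p = 0.00201, edgeR). Without primed replicate 4 the fall was -3.32 (adjusted p = 0.0106). In N40 it was 3.31, 4.22 and 3.37 CPM in primed and 1.60, 0.749 and 0.863 CPM in naive libraries. There the groups did not overlap, but the fall was not called (-1.76 ± 1.06, adjusted p = 0.169). CHRDL1, a chordin-like BMP antagonist, fell in both lines, from 10.4, 20.2 and 8.27 CPM to 0.383, 0.717 and 0.632 CPM in DSY-c2 (-4.48 ± 0.47). N40 read 5.28, 4.37 and 3.62 CPM in primed and 0.104, 0.0499 and 0.101 CPM in naive libraries (-5.67 ± 0.54, adjusted p = 1.73e-07). FSTL4 and FSTL5, brain-enriched relatives of follistatin, were below 3 CPM in these libraries and fell in both lines. The FSTL4 value in DSY-c2 was -5.87 ± 0.90, and -9.93 without naive replicate 2. N40 primed cells had at least 142-fold more FSTL4 than the floor of the naive group, where no library had a count.

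NOG (noggin), which binds BMPs, had 1 count in all DSY-c2 naive libraries together and 883 in the primed ones, a ratio of 882 with a 95% counting interval of 158 to 34887. Primed replicate 4 read 11.5 CPM against less than 1 CPM in its partners, and without it the log2 fold change of -9.33 ± 2.20 became -6.34 (adjusted p = 0.01, edgeR). CHRD (chordin), another BMP binder, rose in N40 from 1.55, 0.808 and 0.784 CPM to 2.12, 2.09 and 1.57 CPM (0.88 ± 0.30, adjusted p = 0.02, edgeR), and this call was lost in 4 of the 6 fits without 1 library. CHRDL2, a further chordin-like gene, rose in N40 from 1.36 to 1.94 CPM to 4.20 to 5.54 CPM (1.59 ± 0.32, adjusted p = 0.000393) and was not called in DSY-c2 (0.971 to 2.12 CPM over its 6 libraries). BMP2K, TGFB1I1 and TGFBRAP1 were included by their letters alone. BMP2K fell from 25.7, 24.3 and 26.0 CPM to 10.6, 11.2 and 10.5 CPM in DSY-c2 (-1.24 ± 0.10) and from 15.8, 14.9 and 13.2 CPM to 12, 10.1 and 11 CPM in N40 (-0.41 ± 0.10, and -0.26 with TMM scaling within ESC libraries). TGFB1I1, a focal adhesion protein that also binds SMADs, fell in DSY-c2 from 11.2, 20.1 and 12.7 CPM to 8.5, 3.67 and 5.8 CPM (-1.29 ± 0.30, adjusted p = 0.00149, edgeR). TGFBRAP1, which binds TGF-beta receptors, rose in DSY-c2 from 15.8, 15.6 and 16.9 CPM to 19.9, 23.3 and 20.1 CPM (0.39 ± 0.10, adjusted p = 0.00449). Neither was called in N40, and in DSY-c2 the groups of each did not overlap.

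Fibroblast genes did not move as one. Their summed level over 5 genes (COL1A1, COL1A2, COL3A1, DCN and POSTN) was 283 to 360 CPM in DSY-c2 primed and 65.4 to 184 CPM in DSY-c2 naive libraries. In N40 the sums were 482 to 762 CPM in primed and 179 to 440 CPM in naive libraries. COL1A1 made up most of the sum in N40 primed libraries and was lower in naive ones (474 to 748 CPM in primed and 115 to 234 CPM in naive). COL3A1 went the other way in both lines, from 0.920 to 7.21 CPM to 11.3 to 40.3 CPM in DSY-c2 and from 0.221 to 0.492 CPM to 36.0 to 134 CPM in N40. COL1A2 was 8.27 to 14.4 CPM in N40 primed and 23.5 to 69.4 CPM in N40 naive libraries, and it overlapped in DSY-c2. POSTN was 91.2, 174 and 7.40 CPM in DSY-c2 primed and 2.49, 1.61 and 0.500 CPM in DSY-c2 naive libraries. In N40, POSTN was at most 0.0505 CPM in primed and 0.507 to 1.83 CPM in naive libraries. DCN was at most 1.49 CPM in the libraries of both lines. The part of these genes in the falls was not tested. Summed trophectoderm genes were higher in naive than in primed cells of both lines. The sum of 5 such genes was 51.0 to 90.3 CPM in DSY-c2 primed and 185 to 239 CPM in DSY-c2 naive libraries. In N40 it was 58.1 to 60.2 CPM in primed and 197 to 230 CPM in naive libraries. Of these genes, GATA2, TFAP2A and CDX2 were a minor part of the naive sums. The sums thus rest mostly on the other genes of the list and are not read as a share of trophectoderm cells. The means of GATA2, TFAP2A and CDX2 were 40.6, 2.81 and 1.10 CPM in DSY-c2 naive and 8.05, 2.77 and 0.395 CPM in N40 naive cells. The sum of 5 primitive endoderm genes was 14.5 to 24.4 CPM in N40 primed and 102 to 157 CPM in N40 naive libraries, while in DSY-c2 it overlapped (41.5 to 458 CPM in primed, 148 to 193 CPM in naive libraries). The part of the trophectoderm and primitive endoderm genes in the rises of GDF3, BMP5, BMPR1A, SMAD2 and SMAD5 was not tested.

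The effects of the 2 lines were also set against each other. The difference of the naive effects was called for 8 members, 1 higher and 7 lower in DSY-c2 than in N40, against 7.43% and 7.46% of all tested genes. The 2 lines mostly carried different header suffixes, and their naive titles carry TgON in DSY-c2 and TgOFF in N40. Line, suffix and Tg label cannot be told apart here. ACVR1C (-4.08 ± 0.82, adjusted p = 0.00361, edgeR) and BMP2K (-0.83 ± 0.15, adjusted p = 0.00153) kept the call in every alternative and in every fit without 1 library. NOG, ACVRL1, BMP1, CHRDL2, SMAD2 and TGFBRAP1 each lost it in at least 2 such fits. Leaving out DSY-c2 primed replicate 4 or N40 primed replicate 2 gave 3 calls.

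DSY127 and No.40, whose titles carry no Tg, differed in 1 member, GDF10, against backgrounds of 2.48% higher and 1.83% lower. GDF10 was 14.7, 15.1 and 12.3 CPM in DSY127 and 4.48, 6.90 and 6.18 CPM in No.40, with no overlap (1.26 ± 0.30, adjusted p = 0.0223, edgeR). The call was lost without DSY127 replicate 1 or 2 or No.40 replicate 1 or 3 (adjusted p 0.0627 to 0.0821). GDF3 was 461, 439 and 403 CPM in DSY127 and 414, 149 and 190 CPM in No.40 and was not called (0.79 ± 0.27, adjusted p = 0.123, edgeR). It was called with the DESeq2 test (adjusted p = 0.0441). It was also called without No.40 replicate 1, the only one of the 6 with headers that end in L6 and L7 (1.35, adjusted p = 0.000176, edgeR). NODAL was 79.8, 34.6 and 87.5 CPM in DSY127 and 212, 21.7 and 26.5 CPM in No.40. Its log2 difference was -0.37 ± 0.82, and 1.48 without No.40 replicate 1. INHBA was highest here, with 7.26, 2.82 and 5.62 CPM in DSY127 and 22.8, 35.1 and 6.03 CPM in No.40, and was not called (-2.03 ± 0.59, adjusted p = 0.0679). The DESeq2 test called 7 members in place of 1.

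In the embryo, the epiblast was compared with the mean of the 5 ICM stages, taken on the log scale with equal weight for each stage. Of 38 members tested, 16 were higher and 5 lower in the epiblast, against 26.6% and 18.2% of all 16929 tested genes. The median log2 fold change of the 38 was 0.87, and 0.23 over all genes. DESeq2 size factors moved the latter by 0.11. The 5 lower members were GDF3, GDF9 and the type I receptors ACVR1, ACVR1B and ACVRL1. The higher ones included CER1, both TGFB1 and TGFB3, 4 of the 5 type II and III receptors, and 3 of the 4 tested BMP and activin antagonists. CER1 and GDF7, also among them, passed the low-count filter through the epiblast alone, so their calls are no test. None of the 5 SMADs was called. Of the 38, 14 differed over the 7 stages in an F test, against 38.2% of all genes. Without epiblast replicate 2, 13 members were called in place of 21. The epiblast libraries held 1515 to 1707 CPM of the 5 fibroblast genes, against 0 to 31.5 CPM in the ICM, and the streak genes summed to 107 to 112 CPM, against 0.0484 to 10.9 CPM. The part of either in the rises was not tested.

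**Figure D4:**
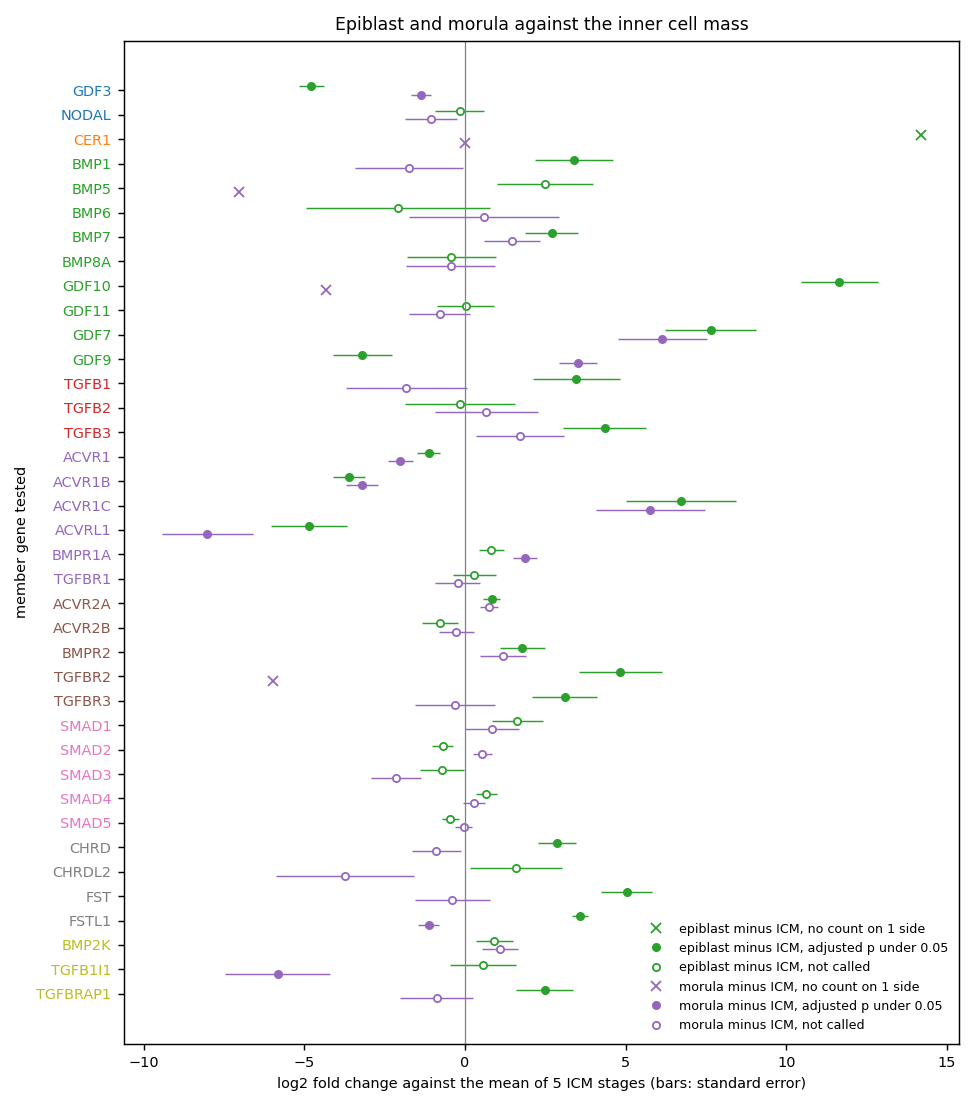
Log2 fold change (x axis, bars are standard errors) of epiblast (green) and morula (purple) against the mean of 5 ICM stages for the 38 tested genes, with filled points for adjusted p under 0.05. Crosses without bars mark contrasts with no count on 1 side (1 in epiblast, 4 in morula), whose fitted values are no measure of size.

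GDF3, the NODAL-like ligand raised in naive cells, was lower in the epiblast. It was 54.4, 57.2 and 43.2 CPM in the epiblast and 352 to 3144 CPM (median 1297) in the 15 ICM libraries. The epiblast was below every ICM library, by a log2 fold change of -4.78 ± 0.40 (adjusted p = 3.74e-07, edgeR). Expanded ICM (2371 ± 325 CPM, SD, n = 3) and blastocyst ICM (2021 ± 992 CPM) held the highest means. Hatching, hatched and early ICM followed at 1404 ± 230, 1158 ± 259 and 725 ± 414 CPM, with SDs that overlap between neighbours. The morula was at 603, 429 and 611 CPM. NODAL was 136, 117 and 137 CPM in the epiblast and 3.24 to 444 CPM (median 191) in the ICM, inside the ICM range (-0.17 ± 0.76, adjusted p = 0.893). Its ICM values scattered within a stage, as in hatched ICM with 42.9, 444 and 191 CPM. Early ICM was lowest, with 28.6, 3.24 and 22.5 CPM, and NODAL missed the threshold of the F test over stages (adjusted p = 0.0738).

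CER1 had no count in any of the 15 ICM or 3 morula libraries and was 50.9, 45.9 and 49.6 CPM in the epiblast. That is at least 11562-fold higher than a floor of 3 counts over the ICM. GDF10 (ENSCJAG00000013653) showed a like pattern, with 164, 141 and 195 CPM in the epiblast and 0 to 0.982 CPM in the ICM (11.65 ± 1.20, adjusted p = 9.64e-06, edgeR). In ESCs, GDF10 reached at most 15.1 CPM. Both genes set the 3 epiblast libraries apart from the other embryo libraries without overlap. GDF7, a BMP of the neural tube, was also called higher, at 1.47, 0.406 and 0.374 CPM, with 113 counts against 2 in the ICM, a ratio of 267 (95% counting interval 72.3 to 2234). Its call was lost with the DESeq2 test (adjusted p = 0.137). CER1 and GDF7 passed the low-count filter through the epiblast alone, so being called higher there was close to given in advance. GDF10 had no count in 10 of the 15 ICM libraries. GDF9, the oocyte ligand, was lower, at 0.0797, 0.508 and 0.393 CPM against 0.682 to 9.69 CPM (-3.20 ± 0.92, adjusted p = 0.00901).

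**Figure D5:**
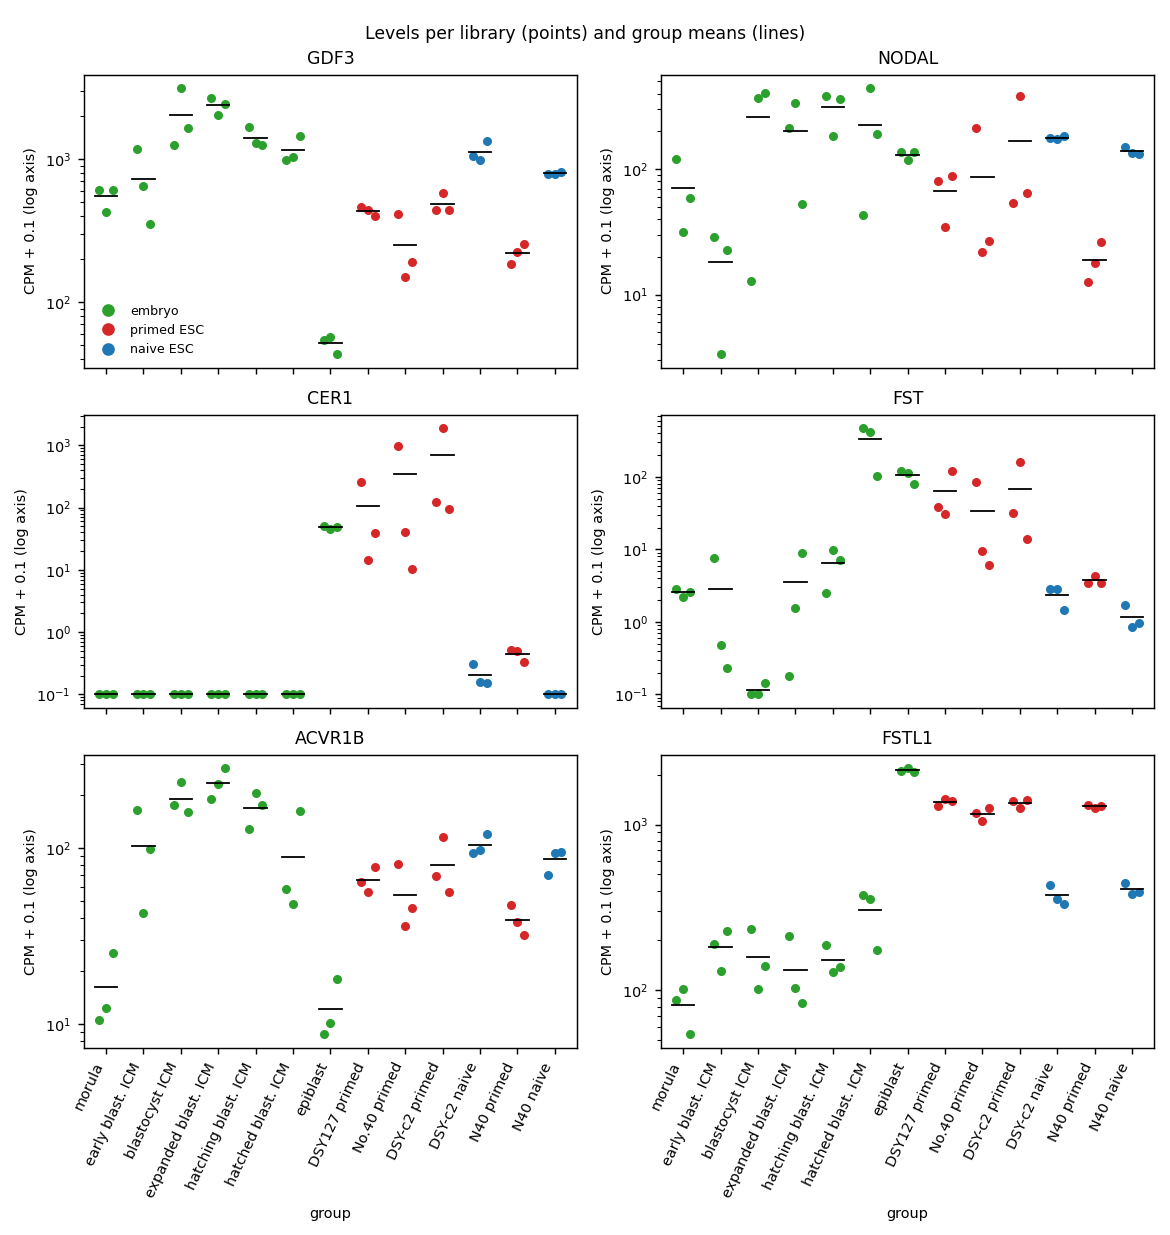
Level (CPM + 0.1, log axis) of GDF3, NODAL, CER1, FST, ACVR1B and FSTL1 in each of the 39 libraries (points) with group means (lines), for embryo stages (green), primed ESCs (red) and naive ESCs (blue). CER1 sits at the floor in the morula and all ICM stages, and FST is high in hatched ICM, epiblast and part of the primed libraries.

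The type I receptors split. ACVR1B was 8.61, 9.96 and 17.8 CPM in the epiblast against 42.7 to 284 CPM (median 164) in the ICM, with no overlap (-3.60 ± 0.51, adjusted p = 3.66e-05, edgeR). ACVRL1 was 1.10, 0.102 and 0.767 CPM against 1.14 to 46.3 CPM (-4.86 ± 1.18, adjusted p = 0.00295). ACVR1 was 138, 157 and 149 CPM against 98.1 to 541 CPM (-1.13 ± 0.36, adjusted p = 0.0182). Its ranges overlapped, and that call was lost without any 1 of the epiblast libraries (adjusted p 0.0558 to 0.0736). BMPR1A, at 368, 353 and 309 CPM in the epiblast, and TGFBR1 were not called. ACVR1C was 2.31, 0.203 and 0 CPM in the epiblast and was called higher, but not without replicate 1 (adjusted p = 0.127) or with the DESeq2 test (0.187).

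Among the type II and III receptors, TGFBR3 was 32.1, 42.3 and 50 CPM in the epiblast against 0.0401 to 12.1 CPM in the ICM (3.11 ± 1.01, adjusted p = 0.0187, edgeR). The call was lost without epiblast replicate 2 or 3 (adjusted p = 0.0531 and 0.0661). BMPR2 was 33.7, 25.4 and 17.7 CPM against 0.0433 to 17.3 CPM, just apart (1.79 ± 0.70, adjusted p = 0.0451), and lost its call in 13 of the 18 fits without 1 library. ACVR2A was 77.2, 71.3 and 45.4 CPM against 18.5 to 69.4 CPM, which overlapped (0.83 ± 0.28, adjusted p = 0.0217, lost without epiblast replicate 1 or 2). TGFBR2, the TGF-beta type II receptor, was 1.43, 11.1 and 1.44 CPM in the epiblast, with a call that was lost without replicate 2 (adjusted p = 0.127). TGFBRAP1 was 10.6, 14.8 and 16.7 CPM against 0.068 to 7.22 CPM (2.48 ± 0.90, adjusted p = 0.0325), lost without any 1 of the epiblast libraries.

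The ligands TGFB1, TGFB3 and BMP7 and the protease BMP1 were higher in the epiblast than in the ICM. TGFB3 was 20.5, 13.5 and 13 CPM against 0 to 5.77 CPM (4.35 ± 1.29, adjusted p = 0.0109, edgeR). BMP7 was 38.9, 26.8 and 28.5 CPM against 0 to 23.7 CPM (2.70 ± 0.83, adjusted p = 0.0138, lost without epiblast replicate 1). TGFB1 was 29.2, 24.6 and 45.9 CPM against 0 to 12 CPM, apart from the ICM. Its log2 fold change of 3.47 ± 1.35 (adjusted p = 0.0444) lost the call in 11 of the 18 fits without 1 library. BMP1 was 18.4, 10.6 and 11.3 CPM against 0 to 7.76 CPM (3.40 ± 1.21, adjusted p = 0.0298), and lost the call without any 1 of the epiblast libraries, and was 5.13 without hatching ICM replicate 3. In each of these 4 genes the epiblast libraries lay above the ICM libraries.

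Of the antagonists, FSTL1 was 2108, 2191 and 2076 CPM in the epiblast against 84.3 to 377 CPM (median 176) in the ICM (3.58 ± 0.24, adjusted p = 5.27e-08, edgeR). The groups were far apart. CHRD was 44.4, 48.5 and 73.8 CPM against 0.181 to 59.3 CPM, which overlapped through hatched ICM replicate 1 (2.86 ± 0.60, adjusted p = 0.000956). FST was 122, 113 and 80.9 CPM in the epiblast and 476, 418 and 104 CPM in hatched ICM. In the 12 libraries of the earlier 4 ICM stages it was at most 9.84 CPM, and the morula had 2.75, 2.08 and 2.52 CPM. FST was called higher in the epiblast than in the log-scale mean of the ICM stages (5.03 ± 0.79, adjusted p = 9.73e-05, edgeR). That value rests on the earlier 4 stages, such as blastocyst ICM with a mean of 0.0142 CPM. In plain CPM the means were 105 in the epiblast, 69.1 over the ICM libraries and 333 in hatched ICM, above the epiblast. Some markers of other lineages were high in hatched ICM too. APOA1, a yolk sac apolipoprotein gene, was 3029, 195 and 69.9 CPM there and at most 29.1 CPM in the other ICM stages. GATA2, a trophectoderm factor, was 1149.7 CPM in hatched replicate 1 but 103 and 114 CPM in the other 2, within the range of the other stages (at most 117 CPM). The summed level of 5 trophectoderm genes was 205 to 1366 CPM in hatched ICM and 93.6 to 341 CPM in the other ICM stages. The sum of 5 primitive endoderm genes was 994 to 4325 CPM in hatched ICM, inside the 492 to 4467 CPM of the other stages. GATA4, on that list, was 50.8, 47.5 and 52.9 CPM in hatched ICM and at most 29.4 CPM in the other ICM stages. FOXA2, a definitive endoderm marker, was 91.3, 101 and 181 CPM against at most 66.4 CPM. The sum of 2 definitive endoderm genes overlapped, at 110 to 197 CPM in hatched and 78.9 to 143 CPM in hatching ICM. Their part in the FST level was not tested.

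The genes lower in naive cells were looked up in the embryo contrast. Of the 13 lower in both lines, 8 were tested in the embryo. Of these, 5 were higher in the epiblast (BMP7, FSTL1, GDF10, TGFB1 and TGFB3), which is 5 of the 16 members higher there, and 0 were lower. Among all genes lower in both lines and tested in the embryo, 58.7% were higher and 3.55% lower in the epiblast, so 5 of 8 is near the background. Of the 5 higher in both lines, GDF3 was lower in the epiblast and the other 4 (BMP5, BMPR1A, SMAD2 and SMAD5) were not called, against 39.2% lower and 6.82% higher among all genes higher in both lines. The embryo and ESC fits share no libraries. FSTL1 levels in primed cells (1045 to 1422 CPM over 12 libraries) lay between epiblast and naive values. GDF3 in primed cells (149 to 581 CPM) lay above the epiblast and reached into the low end of the ICM range, and naive cells (786 to 1330 CPM) lay inside the ICM range. CER1 in naive cells (0 to 0.206 CPM) was nearest to the ICM, where it had no count. N40 primed libraries were nearly as low (0.235 to 0.418 CPM), and the other primed libraries held 10.2 to 1908 CPM.

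The morula was compared with the same ICM mean. Of the 38 members, 4 were higher and 6 lower, against 12% and 8.83% of all genes. GDF9, a ligand made by oocytes, was 20.7, 34.2 and 49.2 CPM in the morula and 0.682 to 9.69 CPM in the ICM (3.52 ± 0.59, adjusted p = 0.000501, edgeR). BMPR1A was 618, 859 and 654 CPM against 72.3 to 477 CPM (1.87 ± 0.36, adjusted p = 0.0016). For both genes the morula lay above all 15 ICM libraries. The other 2 higher members, ACVR1C and GDF7, had counts in 1 morula library of 3 (replicate 2, at 1.29 and 0.792 CPM), and without it their log2 fold changes were -1.62 and -0.54.

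Among type I receptors, 2 were higher and 3 lower in the morula, against 12% and 8.83% of all genes. ACVR1B was 10.4, 12.3 and 25.3 CPM (-3.20 ± 0.49, adjusted p = 0.000275, edgeR) and ACVRL1 was 0.0396, 0.0792 and 0.0949 CPM (-8.01 ± 1.42, adjusted p = 0.000793). ACVR1 was 34.7, 98.4 and 106 CPM (-2.02 ± 0.39, adjusted p = 0.00153). The first 2 lay below every ICM library, and ACVR1 overlapped with the lowest. These 3 were lower in the epiblast as well, but both contrasts use the same ICM libraries. GDF3 was lower in the morula (-1.37 ± 0.31, adjusted p = 0.00495), within the ICM range. FSTL1 was 87.7, 102 and 54.2 CPM (-1.13 ± 0.32, adjusted p = 0.0191), a call lost without morula replicate 1 or 3 (adjusted p = 0.0625 and 0.115). TGFB1I1 was 0.672, 0 and 0 CPM against 0.0484 to 29.2 CPM (-5.83 ± 1.63, adjusted p = 0.0168), lost without morula replicate 2 or 3, and -12.28 without replicate 1.

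A list of 74 further pathway genes, none a member, gave 58 with a matched ID. In naive cells 8 rose and 31 fell in DSY-c2, and 16 rose and 25 fell in N40. Over all tested genes, 25.2% rose and 32.1% fell in DSY-c2, and 26.9% rose and 33% fell in N40. Of 8 other antagonists, 6 fell in DSY-c2 and 5 in N40, with 0 higher in either. HTRA1, a secreted protease that restrains TGF-beta, fell by 5.92 ± 0.32 and 4.24 ± 0.29 on the log2 scale. SOSTDC1, a BMP antagonist, fell by 6.10 ± 0.39 and 6.59 ± 0.41. NBL1, of the DAN family of BMP antagonists, fell by 3.12 ± 0.45 and 3.01 ± 0.46. Of 9 processing and latency genes, 6 fell in DSY-c2 and 7 in N40. LTBP1, which tethers latent TGF-beta to the matrix, went from a mean of 164 to 16.7 CPM in DSY-c2 and from 565 to 22.6 CPM in N40. THBS1, which activates latent TGF-beta, and LTBP3, of the same family as LTBP1, also fell in both.

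Nuclear partners moved both ways. FOXH1, which recruits SMAD2 to NODAL targets, rose by 0.90 ± 0.13 in DSY-c2 and by 0.76 ± 0.13 in N40. TGIF1, a SMAD corepressor, fell by 2.18 ± 0.14 and 1.88 ± 0.14. SKIL, another SMAD corepressor and a TGF-beta target, fell by 0.94 ± 0.16 and 0.93 ± 0.16. Among 13 target genes, 3 rose and 6 fell in DSY-c2 and 6 rose and 2 fell in N40. The shares of all tested genes that rose and fell were 25.2% and 32.1% in DSY-c2, and 26.9% and 33% in N40. EOMES fell by 5.34 ± 1.62 and MIXL1 by 5.54 ± 1.06 in DSY-c2, neither was called in N40, and GATA2 rose in both lines. Between DSY127 and No.40, 1 of the 58 was higher and 1 lower, against 2.48% and 1.83% of all tested genes. In the epiblast, 33 of 56 tested were higher than in the ICM, including 7 of 7 antagonists, and 1 was lower. Of these antagonists, BMPER and DCN had no count in the ICM, and KCP and VWC2 had ICM stage means of at most 0.0313 CPM. They passed the low-count filter through the epiblast, so their calls were close to given in advance. DCN (mean 553 CPM in the epiblast) is also on the fibroblast list. Of all genes tested in the embryo, 26.6% were higher and 18.2% lower there. In the morula 6 were higher and 8 lower, against 12% and 8.83% of all genes.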

How the data were processed

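Poly(A)+ RNA of marmoset ESCs and embryos had been made into TruSeq stranded libraries after RNeasy extraction, per the labels' protocols. The submitters' processing notes name Trim Galore (0.4.0), STAR (2.5.3a) and featureCounts (1.5.2). A genome build was not given in the sources used here, nor an annotation. Values were deposited by the authors as raw counts for 30811 gene IDs. Symbols joined by ID covered 41.1% of IDs and 73.8% to 78.7% of counts. The 2 runs of each library were summed, giving 39 libraries from 78 columns, and 6 columns of no sample were not used. Between runs of a library the chi-square per gene was 1.91 to 2.00, and between libraries of a group it was 28.1 or more. Of counts from 1 to 49, 65.0% were even, against 50.8% of those of 500 or more, so mates may have been counted separately. Counting intervals and floors cover counting error only.

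Separate fits for ESCs and embryos used edgeR 4.0.16 in R 4.3.3 (quasi-likelihood, robust, filterByExpr) with TMM factors from all 39 libraries, and the methods were tested on simulated data. The SE is the log2 fold change divided by the square root of F. A fold against a group without counts used a floor of 3 counts over the group, and 1 to 3 counts gave a ratio with a 95% interval. Alternatives were DESeq2 1.42.0 and its size factors, TMM within ESC or embryo libraries, no filter, only the groups compared, halved counts, a replicate block and leaving out each library.

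All members could be named by role. Values in every library were printed for members with an adjusted p under 0.05 and at least 10 CPM in a group compared, up to 25 per comparison by size of change, and for NODAL and GDF3. Other pathway lists were given by counts with up to 3 called members each. The remaining members are given by range or count. Members, lists and this rule were chosen with earlier results of these data known.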

Additional observations from a re-analysis of the deposited data

Results flagged for a closer look

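The naive minus primed effect differed between DSY-c2 and N40 for 8 members, by an interaction term tested over all genes (edgeR, adjusted p under 0.05). Of all tested genes, 7.43% were called higher and 7.46% lower in DSY-c2. Naive titles carry TgON in DSY-c2 and TgOFF in N40, so line, Tg label and header suffix cannot be told apart. Only ACVR1C and BMP2K kept the call in every fit without 1 library. As log2 effect in DSY-c2 minus log2 effect in N40, the values were -4.08 for ACVR1C, -2.95 for ACVRL1, -1.64 for BMP1, -0.83 for BMP2K, -1.62 for CHRDL2, -10.46 for NOG, -0.49 for SMAD2 and 0.50 for TGFBRAP1. ACVR1C fell in DSY-c2 and was not called in N40, and BMP2K fell in both lines, more in DSY-c2. ACVRL1 and CHRDL2 were called higher in N40 alone. SMAD2 rose in both lines, more in N40. The NOG value rests on counts mostly from DSY-c2 primed replicate 4, and without that library it was -7.48 (adjusted p = 0.0598). No formal outlier test was run, since groups held 3 libraries. DSY-c2 primed replicate 4 and No.40 replicate 1 stood apart by their levels, as given in the report.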

How the results depend on the processing

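Of the counts of called members, those of the naive effects ranged from 25 to 30 in DSY-c2 (30 in full) and from 23 to 25 in N40 (26 in full) when each library was left out in turn. The difference between lines gave 8 calls, 12 with the DESeq2 test, 9 with DESeq2 size factors, TMM within ESC libraries or only the groups compared, 4 without the low-count filter and 3 to 8 without 1 library. DSY127 against No.40 gave 1 call, 7 with the DESeq2 test, 2 with halved counts and 0 to 2 without 1 library. Epiblast against ICM gave 21 calls, and 13 to 23 without 1 library. The F test over stages gave 14 calls and 22 with the DESeq2 test. Over all genes, DSY127 against No.40 gave 774 calls, 1544 with the DESeq2 test and 387 when those groups were fitted alone. In the morula contrast, 57.6% of all calls were higher, and 45.6% with the DESeq2 test.

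NODAL, which was not called in the contrasts concerned, changed sign. In DSY-c2 it was -0.059 with DESeq2 size factors and ranged from -0.35 to 1.58 without 1 library. Between DSY127 and No.40 it ranged from -0.83 to 1.48, and in the epiblast it was 0.035 with the DESeq2 test and ranged from -0.28 to 0.024. In the morula, ACVR1C ranged from -1.62 to 7.01 and GDF7 from -0.54 to 6.72. The cause was not tested, except that the fits without a library hold fewer samples.

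The data gave no sign that replicate numbers pair the samples, and the labels do not say. Deviations from group means correlated by -0.094 to -0.032 for same-numbered N40 libraries, -0.221 to 0.013 for DSY127 and No.40, and -0.179 to 0.129 over 63 embryo pairs. With the replicate block, called members numbered 25 in N40, 7 for the difference between lines, 2 for DSY127 against No.40, 20 in the epiblast, 8 in the morula and 12 over stages. NODAL between DSY127 and No.40 was 0.35 with the block, and GDF3 was called there (0.93, adjusted p = 0.0264, edgeR). DSY-c2 naive and primed libraries share only 1 number and had no such fit.

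Of 1074 values of named genes recomputed without 1 library, 945 kept direction and side of the threshold, 122 lost the call, 1 gained it and 6 changed sign. At these depths, the 4 members under 1 CPM in every library gave too few counts for a firm statement.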
